A study of Mus musculus with 12 samples.

Results

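The common gamma chain, encoded by Il2rg, is the receptor subunit shared by interleukins 2, 4, 7, 9, 15 and 21. The genes described are the 8 receptor chains Il2rg, Il2rb, Il2ra, Il15ra, Il7r, Il4ra, Il21r and Il9r, together with the ligand gene Il15. They were taken by name as members of the receptor family, with no threshold on their values, and are 9 of the 26629 gene rows with a value above 0. RNA sequencing measured them in 12 libraries of sorted mouse cells in 4 groups of 3, each from 40000 cells. The title of the series asks what loss of LRF, a zinc finger transcription factor encoded by Zbtb7a, does to gene expression in precursors of intestinal intraepithelial lymphocytes and in their progeny.

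All mice were C57BL/6 and homozygous for floxed alleles of the LRF gene. KO mice (Cd4 Cre+ lrffl/fl) carried the Cd4-Cre transgene, whose promoter drives recombination in developing T cells, and control mice (Cd4 Cre- lrffl/fl) lacked it. KO spleen cells and control intraepithelial lymphocytes (IELs) were sorted through 1 gate as CD8αα T cells, positive for CD45, TCRβ and CD8α and negative for CD4 and CD8β. KO precursors (IELp) and control IELp came from the thymus and were TCRβ+ H-2Kb+ CD122+ cells without CD4, CD8α or CD44 and with high CD5 and PD-1. CD122 is the protein of Il2rb, so Il2rb is a gate gene of the precursors and is only described wherever a precursor group is set against a CD8αα group. No KO IELs and no control spleen cells were analysed here, so genotype and tissue of the CD8αα groups cannot be told apart. The labels give neither ages nor the animals behind the replicates, so the p-values measure the spread between these libraries, which may be technical.

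As background, the common gamma chain binds the kinase JAK3, and the partner chain of each receptor binds JAK1. Ligand binding brings the chains together, and the kinases phosphorylate STAT factors, mainly STAT5 below interleukins 2, 7, 9 and 15, STAT6 below interleukin 4 and STAT3 below interleukin 21. Interleukins 2 and 15 also share Il2rb and differ in their alpha chains, Il2ra and Il15ra. CD8αα IELs are known to depend on interleukin 15, which neighbouring cells present on the interleukin 15 receptor alpha chain.

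Each library held between 13432598 and 19947734 counts on genes. Zbtb7a averaged 61.3 ± 2.13 CPM (counts scaled to the library total over genes, as in the deposited FPM table) in KO spleen cells, 111 ± 8.91 in control IELs, 45.5 ± 4.66 in KO IELp and 75.4 ± 6.27 in control IELp (SD, n = 3 each). KO libraries were therefore below the control libraries of the same stage but not at 0. The counts are per gene and not per deleted exon, so they check the labels only in part. Control IEL replicate 3 stood apart from the other IEL libraries, with a chi-square per degree of freedom of 13.0 and 18.2 over genes, against 4.30 between replicates 1 and 2. Without it, the log2 fold of control IELs over control IELp was 4.08 for Il15ra and -2.77 for Il7r. Every chain called with it in a comparison with IELs was still called. All 7 markers of T cells reached at least 1 CPM on average in every group. Summed B cell markers were 88.4 to 108 CPM in KO spleen cells, 34.5 to 61.3 in control IELs, 16.8 to 20.4 in KO IELp and 19.6 to 22.0 in control IELp. Summed markers of myeloid and dendritic cells were 165 to 181, 140.03 to 152, 115 to 118 and 109 to 129 CPM in the same order of groups.

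Among chains that did not rest on low counts in control IELs, Il15ra and Il7r had the largest fold changes between control IELs and control IELp. Control IELs had more Il15ra and far less Il7r and Il2ra than control IELp. KO spleen cells, sorted through the same gate as the IELs, had Il7r and Il2ra at levels nearer to those of precursors and less Il15ra than control IELs. Within the precursors, KO IELp differed from control IELp mainly in a lower level of Il4ra. The values behind each of these statements follow the counts.

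Between KO spleen cells and control IELs, 5 of 8 tested chains were higher in KO spleen cells and 2 were lower at an adjusted p of 0.05 in edgeR's quasi-likelihood test. Of all 14875 genes tested there, 29.1% were higher and 29.2% lower. Between KO spleen cells and KO IELp, 5 of 7 tested chains were higher in KO spleen cells and 1 was lower, against 22.6% and 22.4% of 14880 genes. For control IELs over control IELp, 3 of 7 chains rose and 3 fell, against 31.9% and 32.9% of 14878 genes. Between KO IELp and control IELp, 1 of 8 was higher in KO IELp and 2 were lower, against 6.48% and 6.58% of 14629 genes. With so many genes called in the first 3 comparisons, the counts alone set the chains little apart from the rest, and the sizes given below carry the description. Leaving out KO IELp replicate 2 took the number of all genes called higher in the IELp comparison to 591, and leaving out KO IELp replicate 3 to 615, against 948 with all libraries. Without control IELp replicate 2, 635 genes were lower, against 963. Il15 had too few counts to be tested in any comparison. Il2ra is counted above among the called chains in the comparisons with control IELs. It passed the low-count filter there only through the other group.

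**Figure D1:**
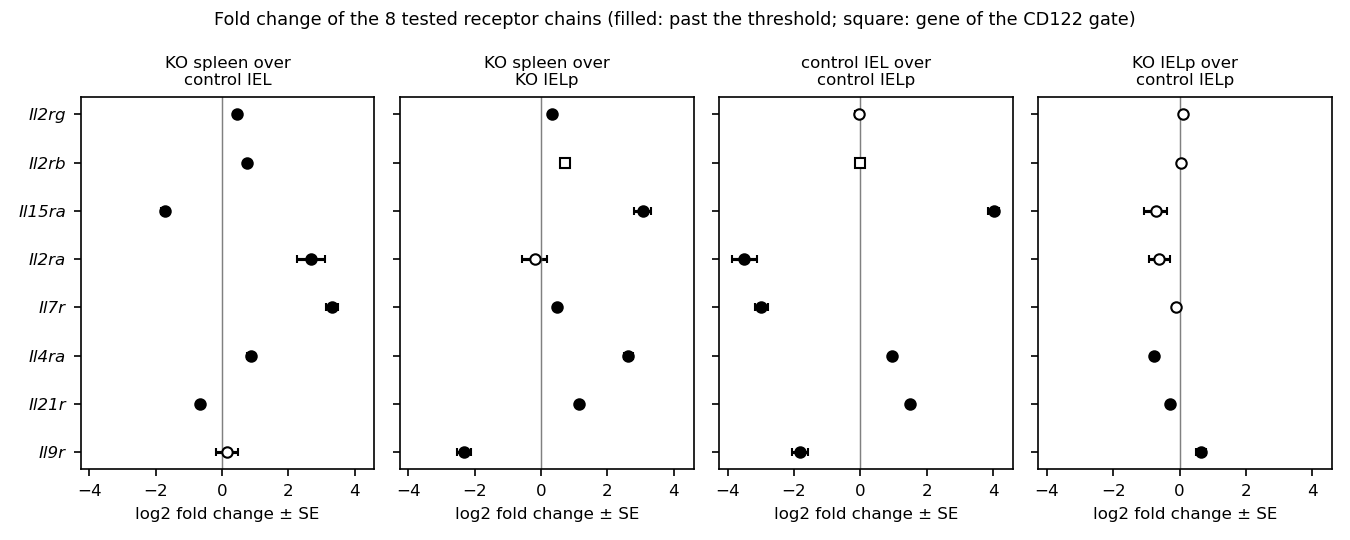
Log2 fold change (x axis, with SE) of the 8 tested receptor chains (y axis) in the 4 comparisons, from edgeR on 6 libraries each. Filled points passed an adjusted p of 0.05 and squares are Il2rb across the CD122 gate, which has no test. Il7r and Il2ra lie far to the right for KO spleen cells over control IELs and far to the left for control IELs over control IELp. The points for KO IELp over control IELp lie within 1 unit of 0. Il2ra passed the low-count filter in the comparisons with control IELs only through the other group.

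To compare chains with each other, counts were also divided by exon length, as CPM per kilobase of exon (RPKM). On this scale Il2rb was the most abundant of the 8 chains in all groups, at 1090 ± 5.99 RPKM in KO spleen cells, 595 ± 16.0 in control IELs, 716 ± 26.5 in KO IELp and 708 ± 11.8 in control IELp (SD, n = 3 each). It made up 74.2 ± 0.604% of the summed per-length level of the chains in KO spleen cells, 62.4 ± 0.226% in control IELs, 76.0 ± 0.611% in KO IELp and 74.2 ± 1.02% in control IELp. The IELs thus held a smaller part of their receptor RNA as Il2rb than any other group, with no overlap between libraries.

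Il21r, the private chain of the interleukin 21 receptor, held a larger part in IELs than elsewhere. It made up 10.1 ± 0.213% of the summed level in KO spleen cells, 22.7 ± 1.02% in control IELs, 7.69 ± 0.167% in KO IELp and 9.49 ± 0.500% in control IELp. Per length, Il21r stood at 1.01 ± 0.0361 times the level of Il2rg in KO spleen cells, 2.21 ± 0.335 times in control IELs, 0.578 ± 0.0259 times in KO IELp and 0.771 ± 0.137 times in control IELp. Il21r exceeded Il2rg in all 3 control IEL libraries, by 1.82 to 2.43 times, and in none of the precursor libraries. The annotated gene Gm20489 overlaps 728 of the 2387 exon bases of Il2rg on the same strand, so reads there may be missing from its counts. The part of this overlap in the ratios was not tested. By its mean, Il2ra was the scarcest chain per length in KO spleen cells and control IELs, at 0.415 ± 0.0353 and 0.0579 ± 0.0240 RPKM, while Il15ra was the scarcest in KO IELp and control IELp, at 0.371 ± 0.161 and 0.616 ± 0.152 RPKM.

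**Figure D2:**
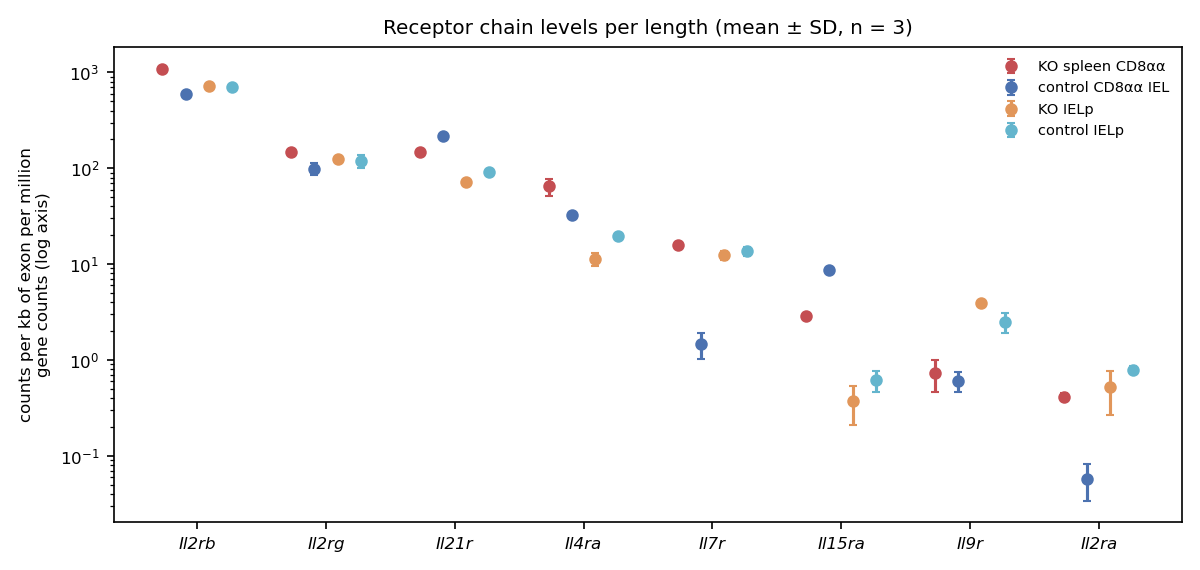
Level of each chain per exon length (y axis, log scale) in the 4 groups, as mean and SD of 3 libraries. Il2rb is highest in all groups, at 595 to 1090 RPKM, and Il7r, Il15ra and Il2ra in control IELs stand apart from the other groups.

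Il2rg, the shared chain, lies on chromosome X at 101264378 to 101268255 on the minus strand (build mm10). It had 348, 359.5 and 343 CPM in KO spleen cells, against 224, 213 and 273 CPM in control IELs. In precursors it had 313, 297 and 289 CPM in KO IELp, against 239.6, 292 and 324 CPM in control IELp. KO spleen libraries lay above all others, and the ranges of the other groups overlapped in part. Il2rg was higher in KO spleen cells than in control IELs by 0.45 on the log2 scale (SE 0.09, edgeR adjusted p = 0.00159) and higher than in KO IELp by 0.34 (SE 0.05, edgeR adjusted p = 6.98e-05). The log2 difference was 0.09 (SE 0.08, edgeR adjusted p = 0.524) between KO IELp and control IELp and -0.04 (SE 0.12, edgeR adjusted p = 0.791) between control IELs and control IELp. Both signs turned when single libraries were left out.

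Il2rb, the signalling chain shared by interleukins 2 and 15, lies on chromosome 15 at 78479256 to 78495271 on the minus strand. It had 4701, 4651 and 4668 CPM in KO spleen cells, against 2585, 2471 and 2594 CPM in control IELs. These groups came through the same gate, which did not use CD122, and did not overlap. Il2rb was 1.69-fold higher in KO spleen cells (log2 fold 0.75, SE 0.04, edgeR adjusted p = 1.45e-07). In the CD122-gated precursors it had 3086, 3173 and 2947 CPM in KO IELp, against 2979, 3042 and 3079 CPM in control IELp. The groups of precursors overlapped, with a log2 difference of 0.04 (SE 0.04, edgeR adjusted p = 0.543). As a description across the gate, the log2 difference was 0.72 for KO spleen cells over KO IELp and -0.02 for control IELs over control IELp. In CPM the control IELs were below the control IELp without overlap, so the size of this difference rests on how the libraries are scaled. NK cells also carry much CD122. Over 7 markers of NK and innate lymphoid cells the sum was 329 to 412 CPM in KO spleen cells, 373 to 415 in control IELs, 728 to 763 in KO IELp and 696 to 834 in control IELp. Ncr1 among them was at 0.436 ± 0.176 CPM in KO spleen cells, 0.0362 ± 0.0627 in control IELs and 0 in both precursor groups. Klrb1c, also on the list, averaged 74.7 CPM in KO spleen cells, 23.1 in control IELs, 2.69 in KO IELp and 7.80 in control IELp. Of 5 listed markers tested between KO spleen cells and control IELs, 3 were higher and 1 was lower in KO spleen cells, against 29.1% and 29.2% of all genes. The part of NK cells in the level of Il2rb was not tested.

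Il15ra, the alpha chain that binds and presents interleukin 15, lies on chromosome 2 at 11705290 to 11734317 on the plus strand. It had 13.7, 11.97 and 12.4 CPM in KO spleen cells and 40.3, 39.4 and 35.6 CPM in control IELs. In precursors it had 1.32, 2.47 and 1.16 CPM in KO IELp and 2.93, 3.29 and 1.99 CPM in control IELp. The CD8αα groups stood apart from each other and above all precursors, while the precursor groups overlapped. Il15ra was 16.2-fold higher in control IELs than in control IELp (log2 fold 4.02, SE 0.17, edgeR adjusted p = 7.56e-09). In KO cells it was 8.31-fold higher in KO spleen cells than in KO IELp (log2 fold 3.06, SE 0.25, edgeR adjusted p = 4.69e-07). The level in KO spleen cells was below that in control IELs by 1.72 on the log2 scale (log2 fold -1.72, SE 0.11, edgeR adjusted p = 6.94e-07). Between KO IELp and control IELp the log2 difference was -0.72 (SE 0.35, edgeR adjusted p = 0.221).

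Markers of gut epithelium were also highest in control IELs, where all 11 reached 1 CPM, and lowest in KO spleen cells. Their sum was 13.996 to 17.0 CPM in KO spleen cells, 519 to 706 in control IELs, 67.1 to 69.0 in KO IELp and 67.0 to 75.6 in control IELp, with Krt19, Krt20 and Fabp1 at 0 in both precursor groups. Most of the sum in IELs came from Cdh1, at 397 ± 26.5 CPM, and Epcam, at 146 ± 37.3 CPM. The keratin gene Krt8 had 1.35, 1.54 and 22.6 CPM in control IEL replicates 1, 2 and 3, and was below 1 CPM in the other groups. The Il15ra level in these 3 libraries was 40.3, 39.4 and 35.6 CPM. The part of epithelial RNA in the level of Il15ra was not tested.

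Il15, the ligand, lies on chromosome 8 at 82331632 to 82403222 on the minus strand and was barely detected. It had 15 counts over the 3 KO spleen libraries, 4 over the control IEL libraries, 3 over the KO IELp libraries and 0 over the control IELp libraries, where 0 counts allow up to 0.0663 CPM. This limit covers counting error only. Pooled, the level was 0.287 CPM in KO spleen cells and 0.0796 CPM in control IELs. Among myeloid and dendritic markers, Adgre1 was at 2.48 ± 1.00 CPM in KO spleen cells and at 0 in all other groups. Of 13 such markers, 10 were tested between KO spleen cells and control IELs. In KO spleen cells 6 were higher, 2 were lower and 2 did not pass, against 29.1% higher and 29.2% lower of all genes tested. The lower ones were Itgam (log2 fold -5.55, SE 0.17, edgeR adjusted p = 3.33e-09) and Cd68 (log2 fold -0.94, SE 0.22, edgeR adjusted p = 0.00459). The part of myeloid cells in the Il15 counts was not tested.

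Il2ra, the alpha chain that gives the interleukin 2 receptor its high affinity, lies on chromosome 2 at 11642807 to 11693193 on the plus strand. It was scarce in all groups, with 2.21, 2.59 and 2.31 CPM in KO spleen cells and 0.246, 0.257 and 0.489 CPM in control IELs. KO IELp had 3.89, 3.67 and 1.32 CPM and control IELp had 4.78, 4.12 and 4.71 CPM. Control IELs were below every other library, and KO IELp replicate 3 was far below the other KO precursors. The control IEL libraries held only 4, 4 and 9 counts of Il2ra. In the comparisons with control IELs the gene passed the low-count filter only through the other group. Neither a fold nor a p-value is therefore given for them. The log2 difference was -0.20 (SE 0.37, edgeR adjusted p = 0.705) for KO spleen cells over KO IELp, with a sign that turned without KO IELp replicate 1, and -0.61 (SE 0.32, edgeR adjusted p = 0.264) for KO IELp over control IELp.

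Il2ra is also a marker of regulatory T cells. Foxp3, the factor that defines those cells, averaged 7.79 ± 1.24 CPM in KO spleen cells, 13.54 ± 3.50 in control IELs, 30.9 ± 2.93 in KO IELp and 39.6 ± 4.93 in control IELp. Summed over 8 regulatory T cell markers, of which Lrrc32 was at 0 in control IELs, the level was 339 to 363, 454 to 595, 556 to 610.5 and 628 to 709 CPM in the same order. KO spleen cells had the lowest of these levels. The part of regulatory T cells in the level of Il2ra was not tested. In bulk RNA of sorted cells, fewer cells of a type and less RNA in each cell cannot be told apart.

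Il7r, the alpha chain of the interleukin 7 receptor and a partner of Crlf2 in the TSLP receptor, lies on chromosome 15 at 9505788 to 9530176 on the minus strand. Its promoter is shown because its change between precursors and CD8αα cells differed by 3.43 on the log2 scale between KO and control groups. This value is given further on, and the end tissues of these groups also differ. The sequence is from RefSeq on build GRCm38.p6, chr15:9529827-9530126, minus strand, written 5′ to 3′ from 250 bases before to 50 bases after the transcription start. Capitals mark matches to motifs searched on both strands.
Il7r: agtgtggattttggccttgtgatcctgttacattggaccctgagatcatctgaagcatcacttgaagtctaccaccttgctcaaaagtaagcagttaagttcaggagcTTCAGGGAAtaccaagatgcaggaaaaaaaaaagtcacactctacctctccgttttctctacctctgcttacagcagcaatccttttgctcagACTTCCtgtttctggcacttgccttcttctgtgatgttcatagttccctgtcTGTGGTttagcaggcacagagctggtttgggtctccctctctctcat
The capitals are a STAT motif (TTCNNNGAA) at -142, an ETS motif (GGAAGT, here on the other strand) at -49 and a RUNX motif (TGTGGT) at 4, none of which overlap. Of 32851 mouse promoters of this length, 8.3% held the STAT motif, 23.8% the ETS motif and 16.8% the RUNX motif. A match is only a run of letters and does not show that a factor binds there.

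Il7r had 69.4, 72.9 and 79.8 CPM in KO spleen cells and 7.004, 8.82 and 4.73 CPM in control IELs. In precursors it had 52.5, 55.3 and 65.2 CPM in KO IELp and 58.1, 61.4 and 70.3 CPM in control IELp. The control IELs were far below all other libraries, and the ranges of the other groups overlapped between neighbours. Il7r was 7.92-fold lower in control IELs than in their control precursors (log2 fold -2.99, SE 0.19, edgeR adjusted p = 1.85e-07). It was 9.996-fold higher in KO spleen cells than in control IELs (log2 fold 3.32, SE 0.18, edgeR adjusted p = 2.02e-07). KO spleen cells also exceeded KO IELp, by 0.47 on the log2 scale (SE 0.09, edgeR adjusted p = 0.00112), and the KO IELp differed from control IELp by -0.11 (SE 0.10, edgeR adjusted p = 0.557).

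Il4ra, which binds interleukin 4 and pairs with the common gamma chain or with the interleukin 13 receptor, lies on chromosome 7 at 125552120 to 125579474 on the plus strand. Il21r starts 51309 bases further along the same strand, at 125603429 to 125633570, with a gap of 23954 bases and no annotated gene between. Their promoters are shown because these neighbours changed in the same direction between some groups and in opposite directions between others. Both are from RefSeq on GRCm38.p6 on the plus strand, 250 bases before to 50 after the start, at chr7:125552021-125552320 for Il4ra and chr7:125603179-125603478 for Il21r.
Il4ra: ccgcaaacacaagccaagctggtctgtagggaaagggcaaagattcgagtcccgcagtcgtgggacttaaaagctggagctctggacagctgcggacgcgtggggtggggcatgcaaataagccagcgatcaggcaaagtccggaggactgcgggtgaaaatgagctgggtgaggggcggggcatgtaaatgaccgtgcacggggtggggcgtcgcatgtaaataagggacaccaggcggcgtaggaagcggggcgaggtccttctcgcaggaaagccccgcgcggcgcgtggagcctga
Il21r: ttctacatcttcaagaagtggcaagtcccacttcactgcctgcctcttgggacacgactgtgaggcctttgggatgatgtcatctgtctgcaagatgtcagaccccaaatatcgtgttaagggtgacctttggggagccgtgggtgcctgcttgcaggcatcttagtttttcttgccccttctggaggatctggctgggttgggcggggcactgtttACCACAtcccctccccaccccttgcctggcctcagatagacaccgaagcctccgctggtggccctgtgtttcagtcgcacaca
The Il21r window held 1 match, a RUNX motif on the other strand at -33, in capitals. The Il4ra window held none of the STAT, RUNX, ETS and AP-1 (TGAGTCA, found in 5.2% of promoters) motifs as spelled. This says only that those letters are not in the window.

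Il4ra had 329.6, 355 and 480.03 CPM in KO spleen cells and 196, 196 and 189 CPM in control IELs. In precursors it had 58.0, 66.8 and 78.4 CPM in KO IELp and 120.3, 113 and 117 CPM in control IELp. No 2 groups overlapped, although KO spleen replicate 3 was well above the other spleen libraries. Il4ra was 1.69-fold lower in KO IELp than in control IELp (log2 fold -0.76, SE 0.09, edgeR adjusted p = 7.30e-05). It was higher in control IELs than in control IELp by 0.97 on the log2 scale (SE 0.07, edgeR adjusted p = 2.90e-07) and 6.16-fold higher in KO spleen cells than in KO IELp (log2 fold 2.62, SE 0.13, edgeR adjusted p = 4.27e-09). KO spleen cells exceeded control IELs by 0.88 (SE 0.12, edgeR adjusted p = 1.35e-04), so the KO group was the lower one among precursors and the higher one among CD8αα cells.

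B cells also express Il4ra and Il21r. The B cell marker sum in KO spleen replicates 1, 2 and 3 was 107.8, 100.9 and 88.4 CPM, beside the 329.6, 355 and 480.03 CPM of Il4ra. The part of B cells in these levels was not tested. The antisense transcript Gm44876 overlaps 571 exon bases of Il4ra and averaged 26.3 ± 5.83 CPM in KO spleen cells, 14.3 ± 1.03 in control IELs, 3.84 ± 0.253 in KO IELp and 7.23 ± 1.00 in control IELp. The strand setting of the counts is not given in the sources used here, so reads of the overlap cannot be told apart. The part of the overlap in the level of Il4ra was not tested.

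Il21r, the private chain for interleukin 21, had 502, 484 and 487 CPM in KO spleen cells and 738, 722 and 693 CPM in control IELs. In precursors it had 239, 245 and 239 CPM in KO IELp and 307, 301 and 294 CPM in control IELp. Libraries of a group lay close together and no groups overlapped. Il21r was 1.23-fold lower in KO IELp than in control IELp (log2 fold -0.30, SE 0.05, edgeR adjusted p = 9.49e-04). It was 2.80-fold higher in control IELs than in control IELp (log2 fold 1.49, SE 0.06, edgeR adjusted p = 3.72e-09) and 2.20-fold higher in KO spleen cells than in KO IELp (log2 fold 1.14, SE 0.04, edgeR adjusted p = 2.07e-10). Unlike Il4ra, it was lower in KO spleen cells than in control IELs (log2 fold -0.67, SE 0.05, edgeR adjusted p = 2.38e-06). Il4ra and Il21r thus fell together in KO IELp and rose together in both CD8αα groups relative to precursors of the same genotype, and moved apart between KO spleen cells and control IELs.

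Il2ra and Il15ra form a second adjacent pair, on the plus strand of chromosome 2 with a gap of 12096 bases and no annotated gene between. They moved in opposite directions in control IELs relative to control IELp and in KO spleen cells relative to control IELs, with the levels given above.

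**Figure D3:**
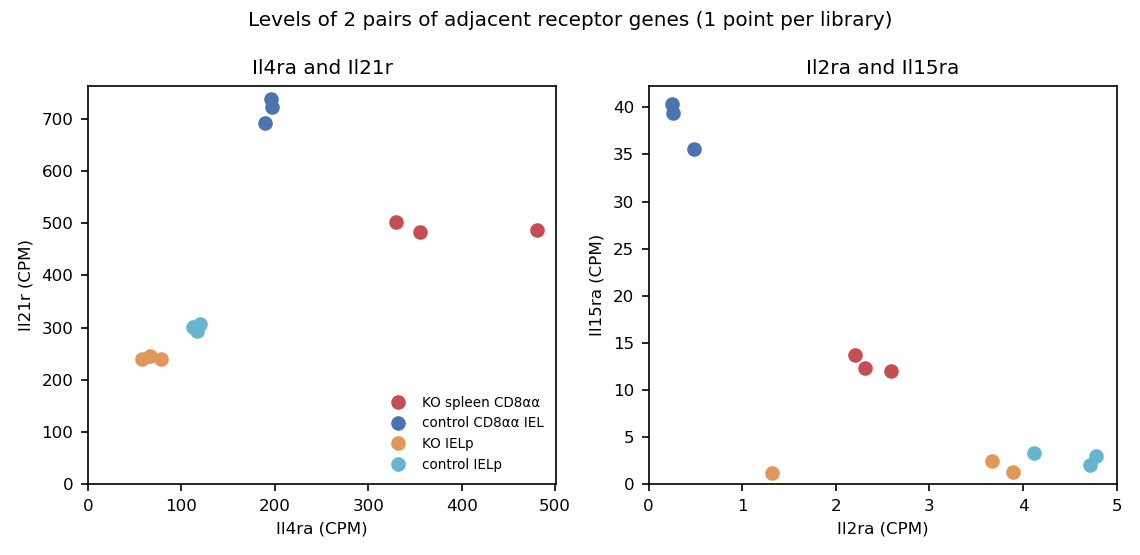
Level of Il21r against Il4ra (left) and of Il15ra against Il2ra (right) in CPM, 1 point per library, coloured by group. In the left plot KO spleen cells are furthest right and control IELs highest, and in the right plot control IELs are at 35.6 to 40.3 CPM of Il15ra with under 0.5 CPM of Il2ra.

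Il9r, the private chain for interleukin 9, lies on chromosome 11 at 32187541 to 32200279 on the minus strand. It had 2.21, 3.81 and 4.84 CPM in KO spleen cells and 3.69, 3.02 and 2.28 CPM in control IELs. KO IELp had 17.8, 20.5 and 19.4 CPM and control IELp had 10.3, 11.3 and 15.8 CPM. It was the only chain whose precursor groups both lay above both CD8αα groups without overlap. Il9r was 1.57-fold higher in KO IELp than in control IELp (log2 fold 0.65, SE 0.16, edgeR adjusted p = 0.0123). This call was lost in edgeR without control IELp replicate 2 (adjusted p = 0.0656), without KO IELp replicate 2 (adjusted p = 0.0589) and in 1 fit of all 12 libraries (adjusted p = 0.0915). Il9r was 3.54-fold lower in control IELs than in their control precursors (log2 fold -1.82, SE 0.24, edgeR adjusted p = 6.45e-05) and lower in KO spleen cells than in KO IELp by 5.02-fold (log2 fold -2.33, SE 0.22, edgeR adjusted p = 1.98e-06). Between KO spleen cells and control IELs the log2 difference was 0.14 (SE 0.33, edgeR adjusted p = 0.744), and its sign turned without control IEL replicate 3 or KO spleen replicate 3.

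**Figure D4:**
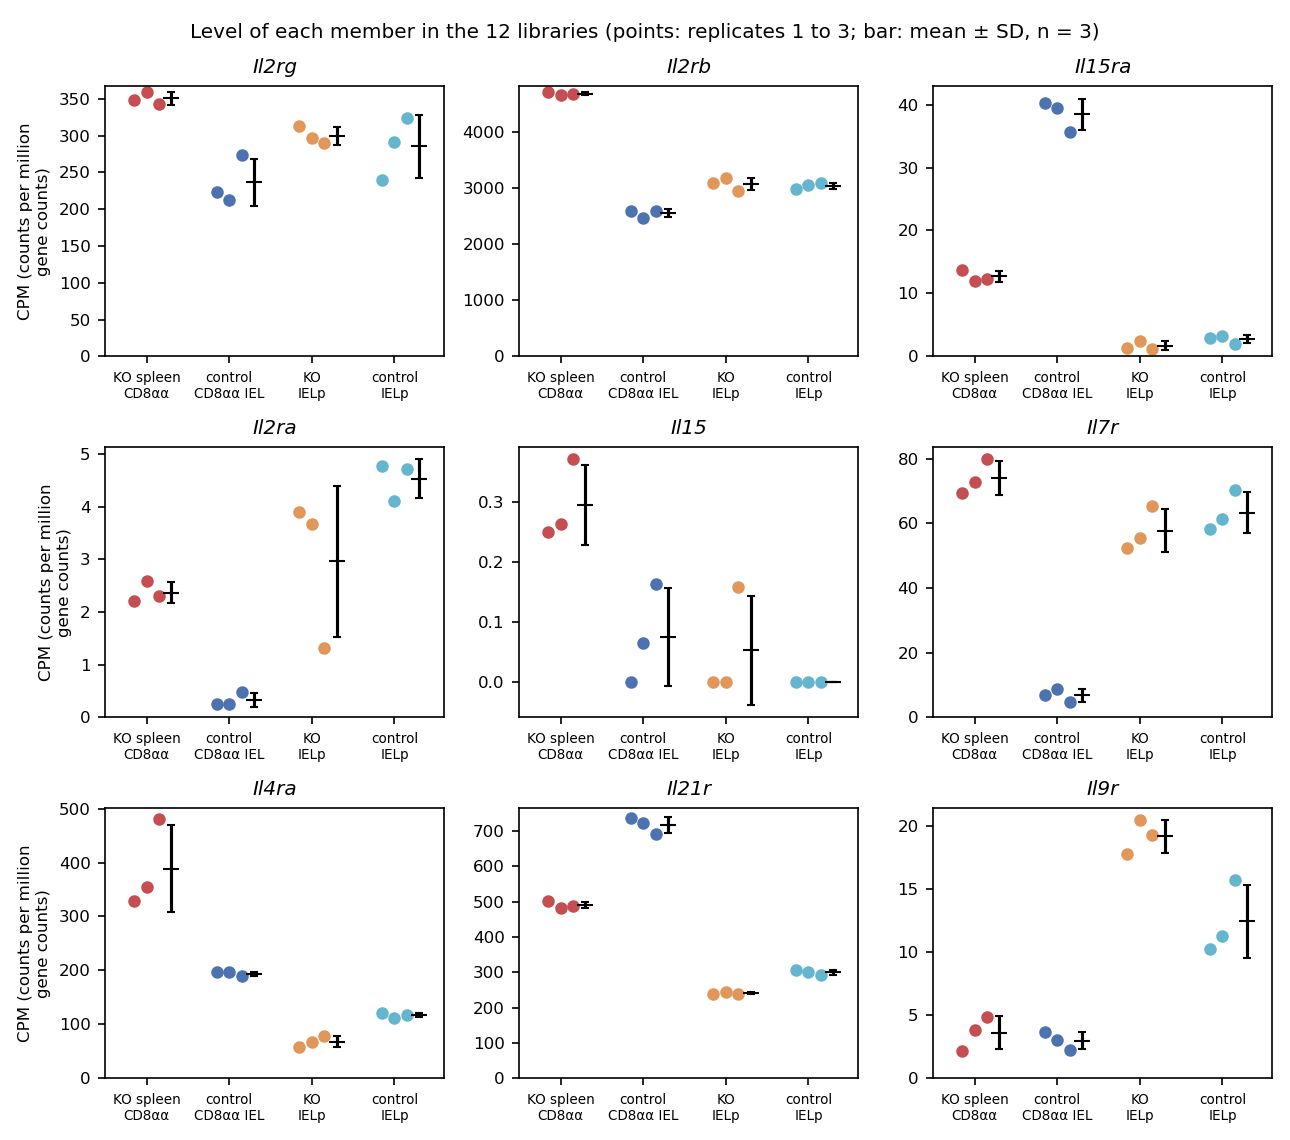
Level in CPM (y axis) of each of the 9 genes in the 12 libraries by group (x axis), with points for replicates 1 to 3 and a bar for mean and SD. Control IELs are the lowest group for Il7r and Il2ra and the highest for Il15ra and Il21r, and Il15 is near 0 throughout.

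The change between precursors and CD8αα cells was then compared between the genotypes, as the log2 fold change of KO spleen cells over KO IELp minus that of control IELs over control IELp. Of 7 tested chains, 3 had a higher and 2 a lower change in KO cells, against 24.2% and 22.5% of 15757 genes. The 3 include Il2ra, which passed the low-count filter only through groups other than control IELs, so its value is not given. The difference was 3.43 for Il7r (SE 0.21, edgeR adjusted p = 1.53e-09) and 1.64 for Il4ra (SE 0.17, edgeR adjusted p = 6.78e-07). It was -0.37 for Il21r (SE 0.07, edgeR adjusted p = 2.21e-04) and -0.99 for Il15ra (SE 0.32, edgeR adjusted p = 0.0179). Without KO IELp replicate 2, the value for Il15ra was -0.58 and no longer passed (edgeR adjusted p = 0.135). For Il2rg the difference was 0.35 (SE 0.14, edgeR adjusted p = 0.0515), and it passed in 6 alternatives. These were edgeR without control IELp replicate 1 (adjusted p = 0.00809), without control IEL replicate 3 (adjusted p = 0.00392), with no filter on low counts (adjusted p = 0.00914) and with a block for replicate number (adjusted p = 0.0472), and limma on FPM + 1 (adjusted p = 0.00670) and on FPM + 0.1 (adjusted p = 0.00941). For Il9r it was -0.52 (SE 0.35, edgeR adjusted p = 0.245). Since the KO cells ended in spleen and the control cells in gut, a difference of genotype and one of tissue cannot be told apart in these values.

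Below the receptors, 12 kinases, STATs and adaptors were tested in every comparison. Between KO spleen cells and control IELs, 4 were higher and 6 lower, against 29.1% and 29.2% of all genes tested. The median log2 fold change was -0.24 against 0.0045 for all genes. Jak1, the kinase of the partner chains, averaged 2956 ± 80.8 CPM in KO spleen cells against 1316 ± 31.0 CPM in control IELs (log2 fold 1.05, SE 0.04, edgeR adjusted p = 2.96e-08). Jak3, the kinase of the shared chain, averaged 288 ± 12.3 CPM in KO spleen cells against 686 ± 42.7 CPM in control IELs (log2 fold -1.37, SE 0.06, edgeR adjusted p = 5.80e-08). Jak1 and Jak3 therefore differed in opposite directions. Irs2, an adaptor of interleukin 4 signalling, averaged 43.4 ± 4.20 CPM in KO spleen cells against 247 ± 15.4 CPM in control IELs (log2 fold -2.63, SE 0.09, edgeR adjusted p = 6.70e-09).

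Relative to their precursors, control IELs had 8 of these 12 higher and 2 lower, against 31.9% and 32.9% of all genes tested. The median was 0.31 against -0.0099 for all genes. Jak3 was 1.88 higher on the log2 scale (SE 0.07, edgeR adjusted p = 3.18e-09), Irs2 2.34 (SE 0.08, edgeR adjusted p = 2.18e-09) and Pik3r1, a regulatory subunit of phosphoinositide 3-kinase, 1.90 (SE 0.07, edgeR adjusted p = 2.66e-09). In KO spleen cells over KO IELp, 6 were higher and 2 lower, against 22.6% and 22.4% of all genes, with a median of 0.16 against -0.0030. There Jak1 rose by 0.85 (SE 0.03, edgeR adjusted p = 4.70e-10), Jak3 by 0.88 (SE 0.06, edgeR adjusted p = 1.01e-07) and Pik3r1 by 0.85 (SE 0.09, edgeR adjusted p = 3.65e-06). In KO IELp over control IELp, 6 were higher and 2 lower, against 6.48% and 6.58% of all genes, with a median of 0.17 against -0.0054. The largest change was in the adaptor gene Gab2, named here after its values were seen, which had 3.76, 6.80 and 6.28 CPM in KO IELp against 3.14, 3.29 and 3.17 CPM in control IELp (log2 fold 0.84, SE 0.25, edgeR adjusted p = 0.0378). Jak1 was higher by 0.18 (SE 0.04, edgeR adjusted p = 0.00806), Jak3 was lower (log2 fold -0.35, SE 0.07, edgeR adjusted p = 0.00311), and the adaptor gene Shc1 was lower (log2 fold -0.41, SE 0.07, edgeR adjusted p = 0.00186). Between the genotypes' changes, 3 of the 12 were higher in KO and 6 lower, against 24.2% and 22.5% of all genes. The examples were Irs2 at -2.94 (SE 0.12, edgeR adjusted p = 1.09e-11), Jak1 at 0.87 (SE 0.06, edgeR adjusted p = 6.49e-09) and Stat3 at -0.87 (SE 0.07, edgeR adjusted p = 2.50e-08).

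Feedback regulators and targets of these cytokines formed a list of 14 genes, all tested. Between KO spleen cells and control IELs, 4 were higher and 7 lower, against 29.1% and 29.2% of all genes, with a median of -0.33. Socs2 and Socs3, inhibitors of cytokine signals, were lower in KO spleen cells. Socs1, of the same family and named here after its values were seen, was higher there (log2 fold 0.56, SE 0.11, edgeR adjusted p = 0.00134). Socs2 averaged 0.640 ± 0.383 CPM in KO spleen cells against 14.7 ± 0.643 CPM in control IELs. It had only 4, 17 and 11 counts in the KO spleen libraries and passed the low-count filter here only through control IELs. Neither a fold nor a p-value is therefore given. Socs3 averaged 16.4 ± 2.37 CPM in KO spleen cells against 41.9 ± 4.55 CPM in control IELs (log2 fold -1.48, SE 0.13, edgeR adjusted p = 6.49e-06). Osm, a STAT5 target, averaged 17.5 ± 0.878 CPM in KO spleen cells against 3.35 ± 0.906 CPM in control IELs (log2 fold 2.25, SE 0.20, edgeR adjusted p = 6.86e-06).

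Relative to control IELp, control IELs had 7 of the 14 higher and 4 lower, against 31.9% and 32.9% of all genes. The median was 0.31. Socs2 was higher by 3.67 (SE 0.32, edgeR adjusted p = 2.40e-06) and Socs3 by 2.26 (SE 0.13, edgeR adjusted p = 6.00e-08), while Myc was lower (log2 fold -1.38, SE 0.13, edgeR adjusted p = 3.32e-06). Socs1, again named after its values were seen, was lower as well (log2 fold -0.59, SE 0.13, edgeR adjusted p = 0.00286). KO spleen cells had 6 higher and 5 lower than KO IELp, against 22.6% and 22.4% of all genes, with a median of -0.15. The smallest adjusted p was that of the chemokine gene Xcl1, at 2.21 (SE 0.10, edgeR adjusted p = 1.96e-09). In KO IELp over control IELp, 1 was higher, 2 were lower and 11 did not pass, with a median of -0.03. Of all genes tested there, 6.48% were higher and 6.58% lower. Xcl1 averaged 17.96 ± 0.517 CPM in KO IELp against 43.8 ± 2.81 CPM in control IELp (log2 fold -1.27, SE 0.10, edgeR adjusted p = 8.25e-07). The changes of the genotypes differed in 12 of the 14, with 4 higher and 8 lower in KO, against 24.2% and 22.5% of all genes. Among the lower ones was Cish, an inhibitor induced by STAT5, at -1.60 (SE 0.18, edgeR adjusted p = 2.05e-06). The medians of this list and of the kinase list were read beside the medians of all genes and were given no test.

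**Figure D5:**
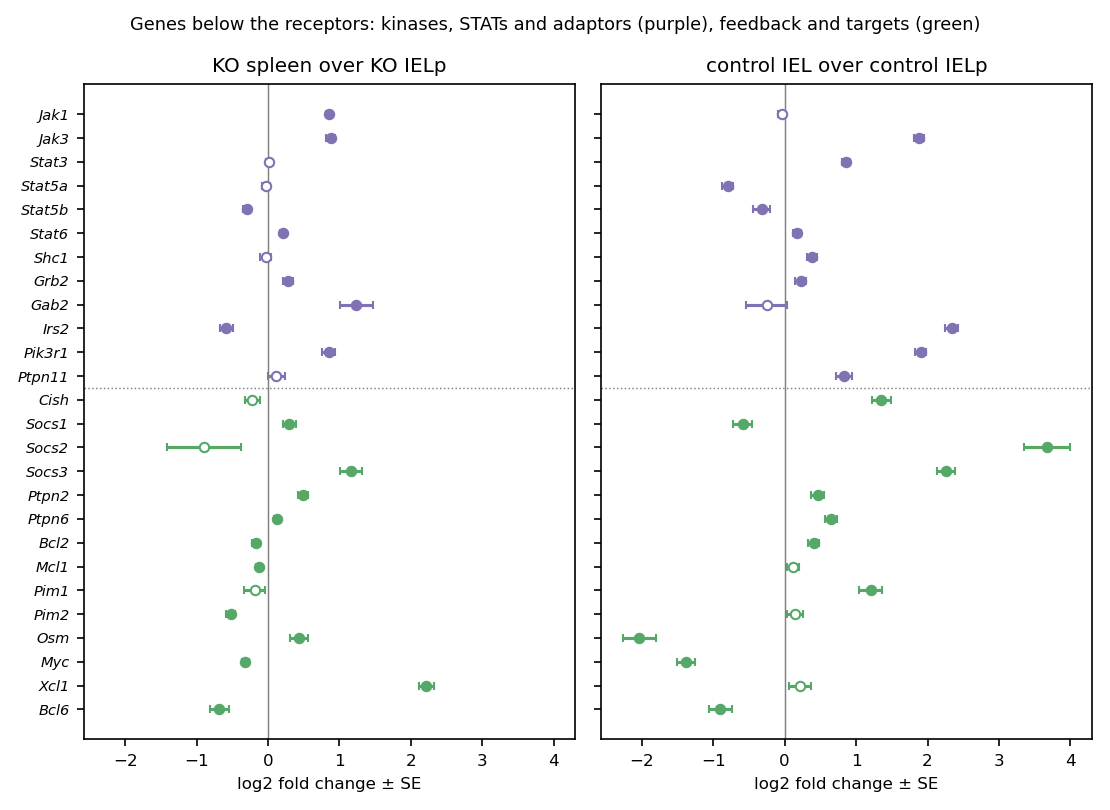
Log2 fold change (x axis, with SE) of 12 kinases, STATs and adaptors and of 14 feedback regulators and targets, for KO spleen cells over KO IELp (left) and control IELs over control IELp (right). Open circles did not pass an adjusted p of 0.05. Socs2 reaches 3.67 and Irs2 2.34 in control IELs, and Xcl1 reaches 2.21 in KO spleen cells.

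The other ligands of the family were scarce. Il7, which stromal and epithelial cells make for lymphocytes, had 3.07, 2.38 and 1.79 CPM in control IELs and 0 counts in the other 3 groups. Against a floor of 3 counts over a group, it was at least 41.6-fold higher in control IELs than in KO spleen cells, at least 40.4-fold higher than in KO IELp and at least 36.0-fold higher than in control IELp. Epithelial markers were highest in the same group, as given above for Il15ra, and Krt8 had 1.35, 1.54 and 22.6 CPM in the libraries in which Il7 had the values just given, in that order. The part of epithelial RNA in the level of Il7 was not tested. Il2 averaged 1.90 ± 0.230 CPM in KO spleen cells, 0.931 ± 0.312 in control IELs, 0.0597 ± 0.00665 in KO IELp and 0.0669 ± 0.00751 in control IELp. Il2 had 41, 38 and 22 counts in the KO spleen libraries, 13, 20 and 13 in the control IEL libraries and 1 in each precursor library. The gene passed the low-count filter only through the CD8αα groups, so neither a fold nor a p-value is given. Il4 and Il21 averaged under 1.5 CPM in every group, and Il9 had 0 counts in all libraries.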

How the data were processed

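Gene counts and a second table named FPM were deposited by the authors. Per the submitters' processing notes, tools included bcl2fastq 2.17, Trimmomatic, STAR, HTSeq and DESeq2 with build mm10. Settings, annotation and strandedness are not given in these sources. Per the labels' protocols, libraries were made with SMARTer Ultra Low Input and Nextera XT kits and read as 76 bp pairs. The authors' FPM values equal CPM of counts on gene rows within 4.99e-06. Between 58.8% and 61.0% of counts stood in 5 summary rows that name no gene and were left out. The reads carry no molecular identifiers, so limits cover counting error only.

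Groups were compared 2-sided with edgeR 4.0.16 (quasi-likelihood, filterByExpr, TMM, R 4.3.3) on the 6 libraries of each pair, and the difference of changes on all 12. Benjamini-Hochberg adjustment ran over all tested genes, with a threshold of 0.05, and the code was tested on simulated counts. SEs are the log2 fold change over the square root of F. Printed CPM carry no TMM factors. Exon lengths and positions came from GENCODE release 21. RefSeq promoters matched 7 of the 9 members.

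The members, gene lists and tests were chosen with earlier results of these data known. All members are named, and each pathway list gives up to 3 genes with the smallest adjusted p in a comparison. Genes marked as named after their values were seen are outside this rule. Alternatives were median-of-ratios size factors, DESeq2 1.42.0, no low-count filter, a block for the replicate number, a joint fit of all libraries, limma 3.58.1 on log2 FPM with 1 or 0.1 added, limma on the counts for the difference of changes, and leaving out each library. Libraries differed from each other by more than sampling noise, and none was merged or left out.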

Additional observations from a re-analysis of the deposited data

Results flagged for a closer look

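For 5 chains, the log2 change between precursors and CD8αα cells differed between the genotypes in edgeR's test of that difference. The KO change minus the control change was 3.43 for Il7r, 3.27 for Il2ra and 1.64 for Il4ra. For Il21r it was -0.37 and for Il15ra -0.99. Il2ra is the remaining chain. It had 4, 4 and 9 counts in the control IEL libraries and passed the low-count filter only through the other groups, so its value is not given. The KO change runs from KO thymic precursors to KO spleen cells and the control change from control precursors to gut IELs, so genotype and tissue cannot be told apart.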

How the results depend on the processing

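Of 523 log2 values recomputed for 37 single-gene results, 505 kept their direction and side of the threshold. The number of chains called higher in KO IELp was 0 in 1 edgeR fit of all 12 libraries, where 1 chain was higher at an unadjusted p under 0.05, and DESeq2 called 1. It ranged between 0 and 1 when single libraries were left out. For the difference of changes, the chains called lower in KO were 1 with limma on FPM + 0.1 (Il15ra, limma adjusted p = 0.0590) and 1 to 2 with single libraries left out. The sign was not stable in 4 differences that missed the threshold. With single libraries left out, the log2 value for Il2rg spanned -0.014 to 0.19 in KO IELp over control IELp and -0.15 to 0.060 in control IELs over control IELp. Il9r spanned -0.093 to 0.40 in KO spleen cells over control IELs and Il2ra -0.56 to 0.043 in KO spleen cells over KO IELp. The causes were not tested.

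Same-numbered libraries did not deviate together, with correlations of -0.124 to 0.205 over 12 pairs and 5 of 12 best matched by their own number. With the replicate number as a block, the members' calls changed only for Il2rg in the difference of changes (0.35, edgeR adjusted p = 0.0472), which made 4 chains higher in KO instead of 3. In the IELp comparison the block left 760 genes higher and 781 lower. Without TMM scaling, limma on FPM + 1 called 34.7% of changed genes higher in control IELs over control IELp, against 49.2%, and 35.7% in KO spleen cells over KO IELp, against 50.3%. The median of all genes moved to -0.21 and -0.10 there, to 0.11 for KO spleen cells over control IELs and to 0.13 for the difference of changes. With 0.1 added, 62.3% were higher in that difference, against 51.8%. Il15 in all groups, and Il2ra and Il15ra in precursors, rest on few counts. Il2ra in control IELs rests on fewer still, with 4, 4 and 9 counts in replicates 1, 2 and 3. These low counts limit the fold changes.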

Other observations

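Among 13 transcription factors that textbooks tie to Il7r, Il2ra or Il2rb, 7 were higher and 5 lower in KO spleen cells than in control IELs. Of all genes tested there, 29.1% were higher and 29.2% lower. The median log2 fold change was 0.16 against 0.0045 for all genes. Klf2, a factor of circulating T cells, averaged 264 ± 2.87 CPM in KO spleen cells, 5.51 ± 0.589 in control IELs, 302 ± 24.7 in KO IELp and 374 ± 25.7 in control IELp (SD, n = 3 each). Control IELs were the only group with little Klf2, as they were for Il7r. Eomes, a T-box factor known for its tie to Il2rb, averaged 92.2 ± 2.14 CPM in KO spleen cells, 1.04 ± 0.00801 in control IELs, 4.00 ± 0.770 in KO IELp and 5.32 ± 0.899 in control IELp. Tbx21, the related factor T-bet, averaged 694 ± 19.1 CPM in KO spleen cells, 286 ± 5.95 in control IELs, 27.2 ± 8.23 in KO IELp and 19.98 ± 1.86 in control IELp. KO spleen cells had the most Eomes, Tbx21 and Il2rb. Control IELs had more Tbx21 than both precursor groups and, in CPM without TMM scaling, the least Il2rb, at 2550 ± 68.4. Links between the levels of these factors and of the chains were not tested. In KO IELp over control IELp, 3 factors were higher and 3 lower, against 6.48% and 6.58% of all genes. Gfi1, a repressor known to act on Il7r, was higher by 0.54 (SE 0.09, edgeR adjusted p = 9.11e-04), Foxo1, an activator of Il7r, was higher by 0.24 (SE 0.05, edgeR adjusted p = 0.00556), and Klf2 was lower (log2 fold change -0.28, SE 0.06, edgeR adjusted p = 0.00876). Control IELs had 5 factors higher and 6 lower than control IELp, against 31.9% and 32.9% of all genes. KO spleen cells had 9 higher and 2 lower than KO IELp, against 22.6% and 22.4%. The difference of changes was higher in KO for 7 and lower for 3, against 24.2% and 22.5%.

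Of 5 genes for the partner chains and ligands of the interleukin 13 and TSLP receptors, Crlf2 alone could be tested. It averaged 9.52 ± 1.80 CPM in KO spleen cells, 21.5 ± 0.447 in control IELs, 11.5 ± 1.58 in KO IELp and 11.4 ± 1.97 in control IELp. It was higher in control IELs than in control IELp by 1.15 on the log2 scale (SE 0.15, edgeR adjusted p = 4.44e-05), where Il7r, its partner in the TSLP receptor, was lower.

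Among 8795 genes, those whose log2 CPM followed each chain most closely over the 12 libraries are given as a description. The libraries form 4 groups, so each r mostly reflects 4 group levels. The pairs with the highest Pearson r were Plek (0.996) and Rhof (0.991) for Il15ra, Sntb2 (0.996) and Rhof (0.995) for Il21r, and Rasa3 (0.994) and Btla (0.993) for Il7r. Adrbk1 (0.992) and Samd3 (0.991) were closest to Il2rb, Klrb1c (0.987) and Nfkbie (0.986) to Il4ra, Fhl2 (0.972) and Krtcap3 (0.967) to Il9r, and Usp14 (0.943) and Vasp (0.942) to Il2rg.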
